A study of Mus musculus with 30 samples.

Results

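Tudor domain genes of germ granules were followed in testis of Ythdc2 mutant mice. YTHDC2 is a helicase that binds RNA and without which mouse germ cells do not carry meiosis through. The 10 members, taken by symbol from the 55566 features of the adult count table, were Tdrd1, Tdrd3, Tdrd5, Tdrd6, Tdrd7, Tdrd9, Tdrd12, Tdrkh, Rnf17 and Stk31. Joined by Ensembl identifier, 9 of them were measured among 15145 genes at postnatal day 8 and 14846 at postnatal day 10, and Tdrd6 was not analysed at those ages here. All mice were labelled C57BL/6J and all libraries were made from testis. Adult libraries came from 3 Ythdc2 WLA/WLA homozygotes and 3 Ythdc2 WLA/+ heterozygotes, aged 20 or 24 weeks in each genotype, so the adult controls carry the WLA allele too. At day 8, 3 Ythdc2 -/- mice were compared with 3 Ythdc2 +/+ mice. At day 10, 3 Ythdc2 -/- mice were compared with 3 controls, of which 2 were Ythdc2 +/- and 1 was Ythdc2 +/+. Each juvenile animal gave a total RNA library and a library of ribosome footprints, pieces of mRNA kept from digestion by the ribosome sitting on them.

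A Tudor domain is a small fold that binds methylated arginine or lysine in partner proteins. In male germ cells, Tudor proteins hold together cytoplasmic RNA granules, such as the cement between mitochondria and the chromatoid body, by binding methylated PIWI proteins. PIWI proteins carry piRNAs, short RNAs that silence transposons and, in meiotic and later cells, also come from long non-repeat precursors. Of the 10 members, TDRD3 is best known outside this system, as a widely expressed partner of the topoisomerase TOP3B, so medians were also taken without Tdrd3.

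Counted reads per adult library numbered 33331987 to 43707798, and the members together took between 0.223% and 0.241% of them. One library stood apart. Without the first heterozygous library, 1917 features passed the edgeR test where 53 did with all 6 libraries, and without any other single library between 3 and 15 did. Adult levels are given as CPM, counts divided by the library total after TMM scaling. Ythdc2 itself had 33.3 ± 3.03 CPM in heterozygous and 34.1 ± 1.54 CPM in homozygous testis (SD, n = 3 each), and its juvenile values were not analysed here. Since adult columns carry a genotype but no animal, ages could not be tied to libraries. In the juvenile tables, which hold effects and adjusted p-values by the authors, depth is unknown and the spread over animals is not shown.

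Before the values, promoter letters of the members are shown to see what the genes share in sequence. RefSeq windows of the GRCm38.p6 build were matched by symbol for 8 members, and the 250 bases before an annotated transcript start were read, choosing the start nearest to the gene's (1 base away for Tdrkh, 956 for Tdrd5). The E-box CACGTG, the letters bound by several basic helix-loop-helix factors, lay in the windows of 3 of 8 members, Tdrd1, Tdrd9 and Stk31. It lay in 6.02% of all 32851 windows of that length. These hold several windows for some genes, where 1 was read for each member, and were not matched to the members in CpG pairs. The MYB core AACTG, searched on both strands as AACTG or CAGTT, lay in 3 of 8 members, Tdrd7, Stk31 and Tdrkh, and in 39.1% of all windows. The E2F core TTCCCGC, searched on both strands as TTCCCGC or GCGGGAA, lay in 1 of 8 members, Tdrd5, and in 3.82% of all windows. No 2 matches overlapped in a member's window, and a match describes letters and no binding. The E-box windows and those of Tdrkh and Tdrd12, the lowest members in day 8 total RNA and day 8 footprints, follow with motif letters in capitals.
Tdrd1 (chr19:56825959-56826208, plus strand): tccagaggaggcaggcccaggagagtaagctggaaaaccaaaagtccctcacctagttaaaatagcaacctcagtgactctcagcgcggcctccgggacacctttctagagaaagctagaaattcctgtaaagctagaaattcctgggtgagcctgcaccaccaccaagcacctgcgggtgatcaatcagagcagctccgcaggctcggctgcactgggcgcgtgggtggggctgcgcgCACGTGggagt
Tdrd9 (chr12:111971309-111971558, plus strand): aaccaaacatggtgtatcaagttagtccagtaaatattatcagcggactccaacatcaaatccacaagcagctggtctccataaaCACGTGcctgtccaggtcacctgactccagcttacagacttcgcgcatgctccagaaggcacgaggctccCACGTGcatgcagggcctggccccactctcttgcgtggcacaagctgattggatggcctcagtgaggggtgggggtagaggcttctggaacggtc
Stk31 (chr6:49395289-49395538, plus strand): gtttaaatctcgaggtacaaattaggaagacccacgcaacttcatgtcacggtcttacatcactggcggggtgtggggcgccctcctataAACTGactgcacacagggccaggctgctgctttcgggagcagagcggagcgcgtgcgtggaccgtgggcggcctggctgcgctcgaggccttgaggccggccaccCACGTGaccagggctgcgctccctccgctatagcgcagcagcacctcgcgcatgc
Tdrkh (chr3:94412994-94413243, plus strand): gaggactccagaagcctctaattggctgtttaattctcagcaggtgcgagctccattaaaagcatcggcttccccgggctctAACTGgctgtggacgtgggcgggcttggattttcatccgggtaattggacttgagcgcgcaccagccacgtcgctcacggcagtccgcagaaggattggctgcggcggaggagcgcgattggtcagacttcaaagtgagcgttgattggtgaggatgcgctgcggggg
Tdrd12 (chr7:35537745-35537994, minus strand): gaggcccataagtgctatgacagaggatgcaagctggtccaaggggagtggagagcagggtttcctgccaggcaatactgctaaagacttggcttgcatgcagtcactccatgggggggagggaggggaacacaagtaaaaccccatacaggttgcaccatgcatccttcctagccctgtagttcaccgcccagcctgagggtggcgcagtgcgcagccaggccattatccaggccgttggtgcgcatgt
The number of CpG pairs in these windows ran from 5 in Tdrd12 to 21 in Stk31, with 11 in Tdrd1, 8 in Tdrd9 and 19 in Tdrkh, beside a median of 6 over all windows. Tdrd3 and Tdrd5 had more, with 32 and 40 CpG pairs, and Tdrd7 had fewer, with 3.

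The adult libraries ask what a second WLA allele changes in testis that already carries the first. None of the 10 members passed an adjusted p of 0.05 in edgeR's quasi-likelihood test, where 0.236% of 22446 features did. DESeq2 also called none of them. All 10 were kept by the filter on low counts, and each stood at or above the 79.2nd percentile of the tested features in level. Their log2 fold changes, homozygous against heterozygous, ran from -0.08 (Tdrd7) to 0.11 (Tdrd5), with a median of 0.03 beside 0.006 over all features. CPM are not divided by transcript length, so levels are not compared between genes. In testis RNA, fewer cells of a type and less RNA per cell cannot be told apart.

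**Figure D1:**
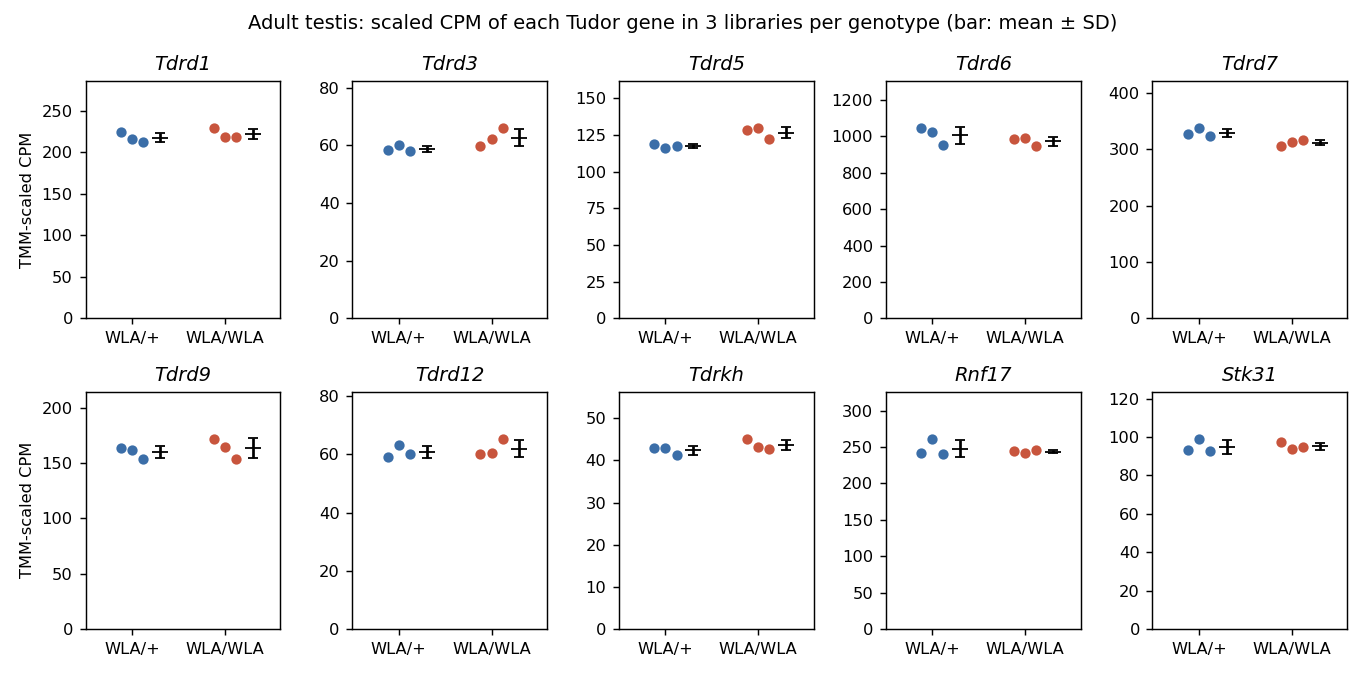
TMM-scaled CPM (vertical axis, from 0) of each member in the 3 heterozygous (WLA/+) and 3 homozygous (WLA/WLA) adult libraries, 1 point a library, with mean and SD as a bar. The genotypes overlap in 8 members and do not in Tdrd5 (homozygous above) and Tdrd7 (homozygous below).

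Tdrd1 (chromosome 19, 56826171 to 56870012, GRCm38.p6 as for all spans here) and Tdrkh encode anchors of PIWI proteins at mitochondria. TDRD1 binds the PIWI protein MILI in the cement. Tdrd1 had 223.9, 216 and 213 CPM in the heterozygous and 229, 219 and 218 CPM in the homozygous libraries. The ranges overlapped, and the log2 fold change was 0.03 ± 0.04 (SE; edgeR adjusted p 0.822). TDRKH sits on the mitochondrial surface and brings PIWI proteins to the trimming of piRNA ends. Tdrkh had 42.9, 43.1 and 41.2 CPM in heterozygous and 45.1, 43.1 and 42.7 CPM in homozygous libraries, again overlapping (log2 fold change 0.04 ± 0.05, edgeR adjusted p 0.765). The annotated span of Tdrkh on chromosome 3 (94413243 to 94434854) shares its last 1468 bases with Oaz3, the antizyme gene of spermatids. Oaz3 had 1433 ± 115 CPM in heterozygous and 1390 ± 30.3 CPM in homozygous testis (SD, n = 3 each), and reads from the shared stretch cannot be told apart without strand, which the sources used here do not give. The spans of Tdrd1, Tdrd5 and Tdrd6 overlap no other annotated gene, and those of the other 7 members share between 103 and 6039 bases with each gene they overlap.

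The helicase-like members Tdrd9 (chromosome 12, 111971488 to 112068854) and Tdrd12 (chromosome 7, 35466941 to 35537784) act with PIWI proteins in piRNA making and transposon silencing in fetal germ cells. Tdrd9 had 164, 162 and 153 CPM in heterozygous and 172, 165 and 154 CPM in homozygous libraries. Tdrd12 had 59.2, 63.1 and 60.0 CPM in heterozygous and 60.0, 60.7 and 65.3 CPM in homozygous libraries. The genotypes overlapped in both genes, with log2 fold changes of 0.03 ± 0.05 for each (edgeR adjusted p 0.823 for Tdrd9 and 0.855 for Tdrd12).

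Tdrd5 (chromosome 1, 156255296 to 156304304), Tdrd6 (chromosome 17, 43615334 to 43631846) and Tdrd7 (chromosome 4, 45965027 to 46034766) encode proteins of the cement and chromatoid body of spermatocytes and spermatids, and TDRD5 binds precursors of pachytene piRNAs. Tdrd5 had 119, 116 and 118 CPM in heterozygous and 128, 129 and 122 CPM in homozygous libraries. Every homozygous library lay above every heterozygous one, by 7.58% in the fit (95% interval 0.552% to 15.1%). This was the only member with an unadjusted edgeR p under 0.05 (0.0363; adjusted p 0.347), where 13.2% of all features were under it. Without the first heterozygous library the log2 fold change of Tdrd5 was 0.11, as with it (edgeR adjusted p 0.167). Tdrd7 had 328, 337 and 324 CPM in heterozygous and 307, 313 and 316 CPM in homozygous libraries. Here every homozygous library lay below every heterozygous one, and the change was -5.45% (interval -11.2% to 0.625%, edgeR adjusted p 0.432). Groups that did not overlap were found in 2 of 10 members and in 19.3% of all features, so the members' share was that of the background; 8.99% of features had all homozygous libraries above and 10.3% had them below. Tdrd6 had 1044, 1023 and 951 CPM in heterozygous and 987, 991 and 946 CPM in homozygous libraries, which overlapped (log2 fold change -0.05 ± 0.05, edgeR adjusted p 0.71).

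RNF17 (TDRD4) forms granules of its own in germ cells and restrains piRNA amplification in meiotic cells, and STK31 (TDRD8) pairs a Tudor domain with a kinase-like domain and binds MIWI. Their genes lie on chromosome 14 (56402650 to 56525032) and chromosome 6 (49395506 to 49469506), and Tdrd3 lies on chromosome 14 (87416178 to 87545508). Rnf17 had 241, 261 and 241 CPM in heterozygous and 244, 241.7 and 245 CPM in homozygous libraries. The second heterozygous library was highest, and the homozygous values lay within the heterozygous range (log2 fold change -0.02 ± 0.05, edgeR adjusted p 0.86). Stk31 had 93.1, 98.9 and 92.6 CPM in heterozygous and 97.3, 93.8 and 94.6 CPM in homozygous libraries, which overlapped (log2 fold change 0.006 ± 0.05, edgeR adjusted p 0.974). Tdrd3 had 58.2, 60.0 and 58.0 CPM in heterozygous and 59.9, 62.2 and 65.9 CPM in homozygous libraries. Its ranges met by a margin of under 1 CPM, and the log2 fold change was 0.09 ± 0.05 (edgeR adjusted p 0.473).

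**Figure D2:**
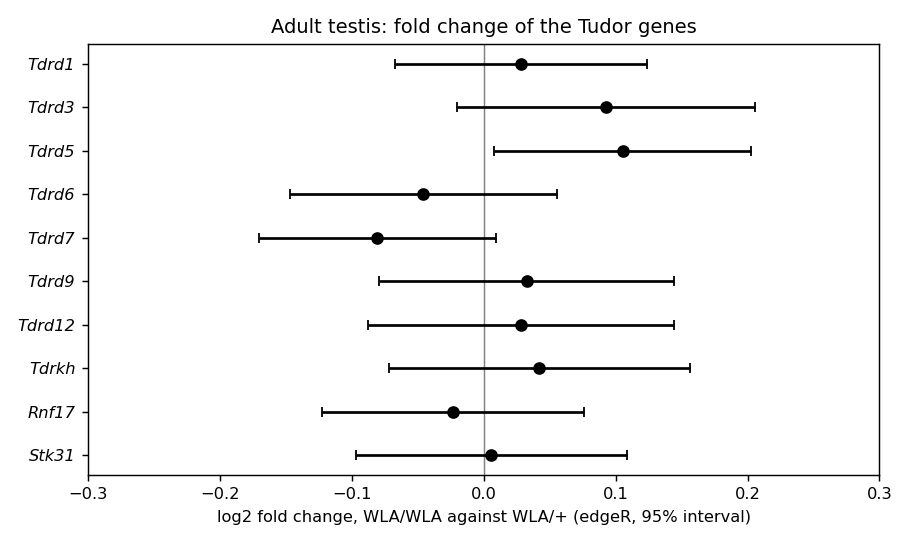
Log2 fold change of each member, homozygous against heterozygous adult testis (horizontal axis), with the 95% interval of edgeR's quasi-likelihood fit as a bar. All intervals lie between -0.17 and 0.21, and those of all members but Tdrd5 contain 0.

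Over the 10 members the coefficient of variation within a genotype was 5.43% at most. The 95% intervals, each for a single gene, reached 11.2% below and 15.3% above the heterozygous level at most. Summed over the members, the level was 2373, 2381 and 2252 CPM in heterozygous and 2329, 2318 and 2270.0 CPM in homozygous libraries, with overlap. Much of this sum was Tdrd6 alone, with 951 to 1044 CPM in heterozygous and 946 to 991 CPM in homozygous libraries. Of the lists read beside the members, Leydig, undifferentiated spermatogonia and partner genes had summed levels that did not overlap between genotypes. Among single features, 19.3% did not overlap. Leydig cell markers ran from 310 to 482 CPM in heterozygous and from 488 to 559 CPM in homozygous libraries, with 8 of 8 genes above 0 in log2 fold change, where 51.5% of all features were. Undifferentiated spermatogonia markers ran from 81.8 to 87.7 and from 87.9 to 92.0 CPM, with 10 of 13 above 0. The 24 piRNA and granule partners ran from 7635 to 7872 and from 7897 to 8040.2 CPM, with only 13 of 24 above 0 (median log2 fold change 0.009). Pachytene markers (8809 to 9297 against 8857 to 8995 CPM) and early meiotic markers (2370 to 2495 against 2348 to 2431 CPM) overlapped. Summed levels of the other marker lists overlapped too, though most genes lay above 0 in the Sertoli (11 of 12, median log2 fold change 0.15), differentiating spermatogonia (10 of 10, 0.07) and peritubular myoid (5 of 6, 0.13) lists. No marker of any list passed 0.05 in edgeR. DESeq2 called 1 marker, Izumo1, a sperm gene of egg fusion, at 98.5 ± 4.23 CPM in heterozygous and 82.7 ± 1.999 CPM in homozygous testis (SD, n = 3 each; DESeq2 adjusted p 0.00806, edgeR 0.0687). Of all features, DESeq2 called 1.21%. Round spermatid markers as a list had 8 of 12 below 0 (median -0.04). Under an unadjusted p of 0.05 in edgeR were 13.2% of all features. Among markers, 2 of 8 Leydig, 2 of 13 undifferentiated, 1 of 10 differentiating and 2 of 25 early meiotic ones were under it. So were 4 of 12 pachytene, 2 of 12 round spermatid, 2 of 12 Sertoli and 2 of 6 peritubular myoid markers. The part of these cell types in the values of Tdrd5 and Tdrd7 was not tested.

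The juvenile comparisons set testis without Ythdc2 beside controls at ages when germ cells approach and enter meiosis. Effects are knockout minus control on a log scale read as log2, from anota2seq. In the authors' deposited table, day 8 total RNA had none of 9 members past an adjusted p of 0.05 (anota2seq) or 0.15, where 0.0528% and 0.132% of genes were. These tables give adjusted p-values alone. Effects below 0 were found for 4 of 9 members and 52.8% of all genes. The members' median, computed from the authors' deposited table, was 0.001 beside -0.002 over all genes. As a mean it was -0.013 and without Tdrd3 the median was -0.014, both computed from the authors' deposited table, so its sign depended on these choices. The highest in the authors' deposited table were Tdrd7 at 0.04 and Tdrd5 at 0.03. Rnf17 (0.02), Tdrd3 (0.02) and Tdrd1 (0.001) lay near 0 in the authors' deposited table. Below 0 in the authors' deposited table were Tdrkh at -0.09, Tdrd12 at -0.06, Stk31 at -0.05 and Tdrd9 at -0.03. Even Tdrkh, the lowest, stood at the 5.14th percentile of all effects in the authors' deposited table, with an adjusted p of 0.54 from anota2seq. Beside these, early meiotic markers had a median of -0.11 (24 of 25 below 0) and differentiating spermatogonia markers one of -0.09 (10 of 10 below 0), computed from the authors' deposited table. Red blood cell markers had a median of -0.18 at day 8 and 0.14 at day 10, computed from the authors' deposited table, with 5 of 5 on the same side at each age.

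In day 10 total RNA the members again lay inside the 5th to 95th percentile of all genes. None of 9 passed 0.05 in the authors' deposited table (anota2seq), as for all genes (0.0%), and none passed 0.15, where 1.33% of genes did. Their median, computed from the authors' deposited table, was -0.03 beside 0.0006 over all genes. Of 9 members, 6 lay below 0, where 48.3% of all genes did. Stk31 was the lowest at -0.09 in the authors' deposited table (anota2seq adjusted p 0.392), at the 5.93rd percentile of all genes. Rnf17 (-0.07), Tdrkh (-0.06), Tdrd12 (-0.05), Tdrd5 (-0.03) and Tdrd3 (-0.01) followed in the authors' deposited table. Above 0 in the authors' deposited table were Tdrd7 at 0.03, Tdrd9 at 0.01 and Tdrd1 at 0.001. The lists of germ cell stages in the same libraries had other values. Early meiotic markers had a median of -0.31 computed from the authors' deposited table, with 24 of 25 below 0 and 12 under an adjusted p of 0.15 (anota2seq). Differentiating spermatogonia markers had a median of 0.06 computed from the authors' deposited table, with 2 of 10 below 0. Mybl1, the gene of the A-MYB factor that drives many piRNA pathway genes at pachytene in mouse, had a total RNA effect of -0.31 (anota2seq adjusted p 0.0618) by the authors' deposited table. It was the lowest of 8 measured pachytene markers. Their median, computed from the authors' deposited table, was 0.003, with 4 of 8 below 0. At day 8 the Mybl1 effect was 0.04 in the authors' deposited table. The part of germ cell stage or blood in the members' values was not tested.

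**Figure D3:**
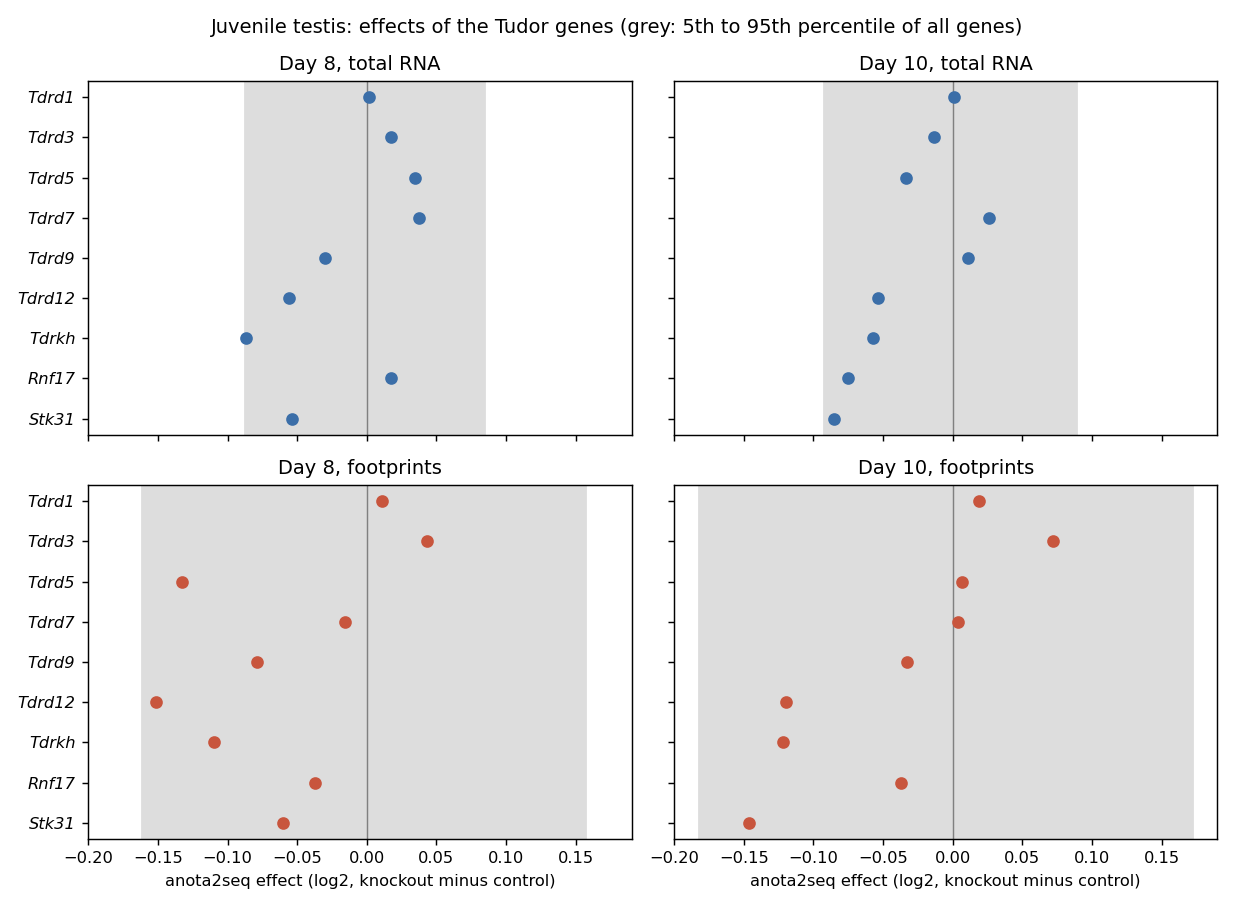
Total RNA (upper) and footprint (lower) effects of the 9 measured members at day 8 (left) and day 10 (right), on a log2 scale, knockout minus control, from the authors' deposited table. Grey bands span the 5th to 95th percentile of all genes, and every member lies inside them.

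**Figure D4:**
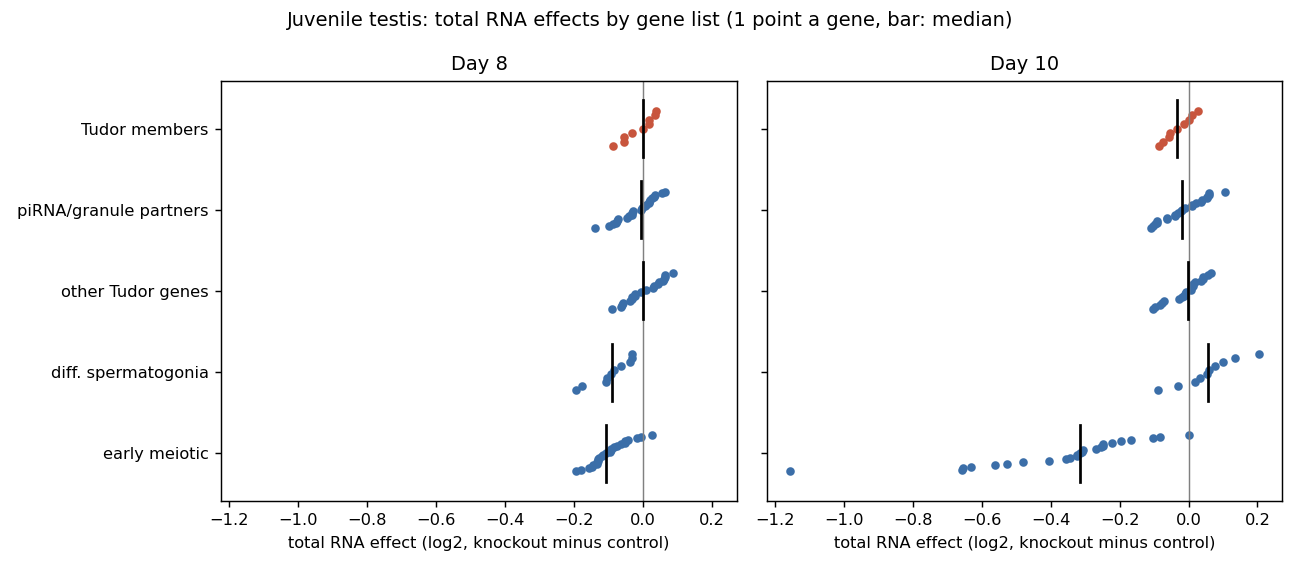
Total RNA effects (horizontal axis, log2, knockout minus control) at day 8 and day 10 by gene list, 1 point a gene, with the median as a bar, from the authors' deposited table. At day 10 the Tudor members lie between -0.09 and 0.03, whereas early meiotic markers reach -1.16.

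In day 8 footprints the median over 9 members, computed from the authors' deposited table, was -0.06 beside 0.003 over all genes, with 7 of 9 below 0 where 48.5% of all genes were; its difference from total RNA was not tested. In the same footprints of the authors' deposited table, early meiotic markers had a median of -0.10 (20 of 25 below 0) and differentiating spermatogonia markers one of -0.11 (9 of 10 below 0), and their part in the members' values was not tested. By anota2seq in the authors' deposited table, neither threshold, 0.05 or 0.15, was passed by a member or by any gene (0.0%), and the smallest adjusted p of a member was 0.981. Tdrd12 stood at -0.15, Tdrd5 at -0.13 and Tdrkh at -0.11 in the authors' deposited table. Tdrd9 (-0.08), Stk31 (-0.06), Rnf17 (-0.04) and Tdrd7 (-0.02) followed in the authors' deposited table. Tdrd3 at 0.04 and Tdrd1 at 0.01 lay above 0 in the authors' deposited table. The 5th percentile of all day 8 footprint effects in the authors' deposited table was -0.16, below each of these values.

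At day 10 the footprint median of the members, computed from the authors' deposited table, was -0.03 beside -0.002 over all genes. Of 9 members, 5 lay below 0, where 50.9% of all genes did. None passed 0.05 in the authors' deposited table (anota2seq), as for all genes (0.0%), nor 0.15, which 0.0269% of genes passed. Stk31 (-0.15), Tdrkh (-0.12) and Tdrd12 (-0.12) were the lowest in the authors' deposited table, followed by Rnf17 (-0.04) and Tdrd9 (-0.03). Tdrd3 at 0.07, Tdrd1 at 0.02, Tdrd5 at 0.007 and Tdrd7 at 0.003 lay above 0 in the authors' deposited table. Tdrd5 thus stood at -0.13 in day 8 footprints and at 0.007 in day 10 footprints of the authors' deposited table; the difference between ages was not tested. Total RNA and footprints at an age come from the same animals, so they are not independent readings.

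Translation is the footprint change that remains after the authors' regression on total RNA. No member passed 0.05 in translation in the authors' deposited table (anota2seq), where 1.33% of genes did at day 8 and 2.68% at day 10. None passed 0.15 either in the authors' deposited table (anota2seq), where 3.06% and 6.13% did. None was in the authors' class of translationally changed genes, which held 0.165% and 0.357% of genes. At day 8 the effects in the authors' deposited table ran from -0.24 (Tdrd5) to 0.31 (Tdrkh, anota2seq adjusted p 0.244). Tdrkh had the highest translation effect although both of its measured effects lay below 0, and footprint minus total RNA was -0.02, computed from the authors' deposited table. The slope worked back for Tdrkh from these values of the authors' deposited table was 4.80, and for Tdrd7, at -0.24, it was 5.95. With a slope above 1, the translation effect lies above the plain difference for a total RNA effect below 0, as for Tdrkh, and under it for one above 0, as for Tdrd7. At day 10 the members' translation effects in the authors' deposited table ran from -0.10 (Tdrkh) to 0.11 (Rnf17), and all 9 were on the same side of 0 as the plain difference, where 7 of 9 were at day 8.

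**Figure D5:**
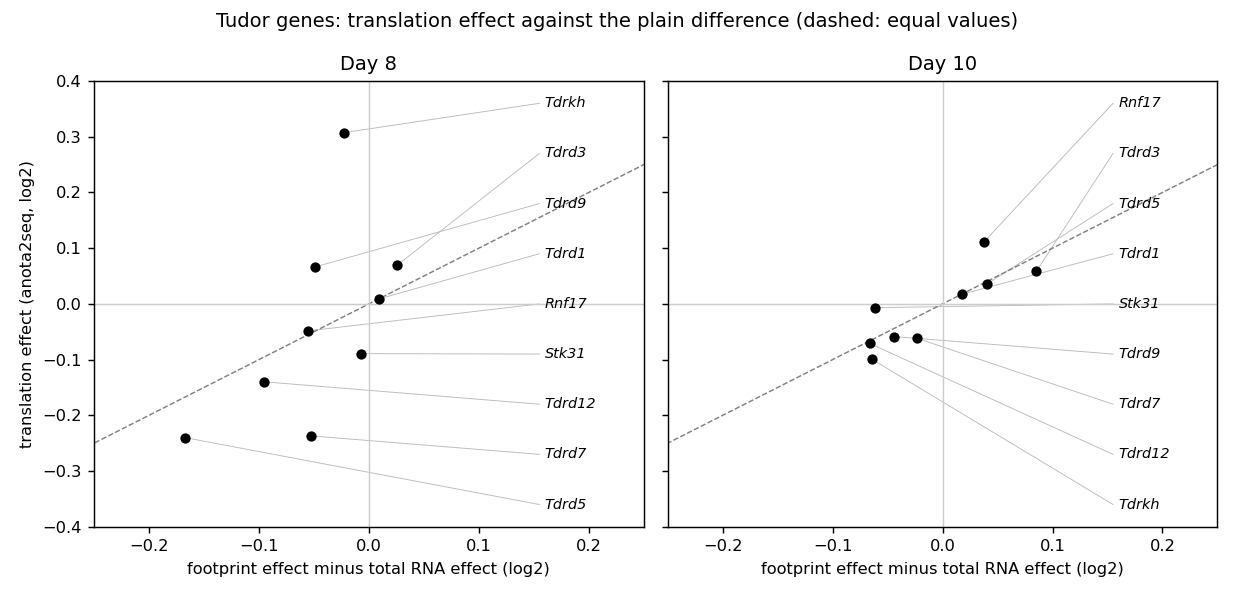
Translation effect of anota2seq (vertical axis) against footprint effect minus total RNA effect (horizontal axis), both log2, for the 9 members at day 8 and day 10, from the authors' deposited table; the dashed line marks equal values. Tdrkh at day 8 lies at 0.31 against a plain difference of -0.02.

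Buffering, the part of a total RNA change that does not reach the footprints in the authors' model, is the fourth value the tables give. None of 9 members passed 0.05 in buffering in the authors' deposited table (anota2seq), where 1.49% of genes did at day 8 and 1.37% at day 10. At day 8 buffering effects in the authors' deposited table ran from -0.07 (Tdrkh, anota2seq adjusted p 0.568) to 0.06 (Tdrd5, 0.608). At day 10 they ran from -0.06 (Rnf17, anota2seq adjusted p 0.502) to 0.03 (Tdrkh) in the authors' deposited table.

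The partners of the Tudor proteins were read from a list of 24 piRNA pathway and granule genes, among them PIWI genes, the helicase gene Ddx4, Mael and Gtsf1. In adult testis none of 24 passed 0.05 in edgeR, with a median log2 fold change of 0.009 and 13 above 0. An unadjusted edgeR p under 0.05 was found for 6 of 24, and for 13.2% of all features. The highest was Adad2, a gene of a meiotic and postmeiotic RNA-binding protein, at 25.3 ± 1.75 CPM in heterozygous and 31.4 ± 2.92 CPM in homozygous testis (SD, n = 3 each). Its log2 fold change was 0.32 ± 0.08 (SE, edgeR adjusted p 0.133), with groups that did not overlap, as in 19.3% of all features. The lowest was Piwil4, the gene of the fetal PIWI protein MIWI2, at -0.20 ± 0.26 (edgeR adjusted p 0.797) and under 1 CPM in both genotypes. DESeq2 called 1 of 24, Adad2 (adjusted p 0.0406), where it called 1.21% of all features. Calls by edgeR without the first heterozygous library were Adad2 (adjusted p 0.0122) and Ybx2 (0.0142), the gene of a germ cell Y-box protein that binds stored mRNA; these 2 of 24 stand beside 8.37% of all features called there, a like share.

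In juvenile testis 23 of the 24 partners were measured, and none passed 0.05 in total RNA or footprints in the authors' deposited table (anota2seq). Their total RNA medians, computed from the authors' deposited table, were -0.004 at day 8 and -0.02 at day 10. Tex15 (-0.14) was lowest and Exd1 (0.07) highest at day 8 in the authors' deposited table, and Btbd18 (-0.11) and Kif17 (0.10) at day 10. Footprint medians, computed from the authors' deposited table, were -0.04 at day 8, with 17 of 23 below 0, and -0.01 at day 10. In footprints, Piwil1 (-0.17) was lowest and Spocd1 (0.09) highest at day 8 in the authors' deposited table, and Tex15 (-0.12) and Kif17 (0.16) at day 10. Kif17, the gene of a kinesin known to bind MIWI in mouse testis, was the single partner past 0.05 in translation at either age. Its day 10 value in the authors' deposited table was -1.81 (anota2seq adjusted p 0.0131), where 2.68% of all genes passed. The footprint effect of Kif17 there was 0.16 and its total RNA effect 0.10, both above 0. The slope was not worked back for Kif17. Why its translation value lay below 0 while both measured effects lay above 0 was not tested.

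Other Tudor domain genes, mostly of chromatin and splicing proteins, were read from a list of 22, of which 20 were matched. In adult testis none passed 0.05 in edgeR or DESeq2, and the list's median log2 fold change was 0.05 with 15 above 0. An unadjusted edgeR p under 0.05 was found for 3 of 20, and for 13.2% of all features. Sgf29 (-0.05 ± 0.06, edgeR adjusted p 0.738) was the lowest, and Phf19 (1.04 ± 0.42, edgeR adjusted p 0.321) the highest at under 1 CPM. In juvenile total RNA and footprints none of 20 passed 0.05 in the authors' deposited table (anota2seq). Phf19 (-0.09) and Phf20l1 (0.09) were the extremes of day 8 total RNA in the authors' deposited table, and Arid4a (-0.10) and Lbr (0.06) those of day 10. In footprints the extremes in the authors' deposited table were Phf19 (-0.26) and Phf1 (0.24) at day 8, and Sgf29 (-0.11) and Lbr (0.13) at day 10. Phf20l1, 1 of 20, passed 0.05 in day 10 translation at 1.83 in the authors' deposited table (anota2seq adjusted p 0.000605), where 2.68% of all genes passed. Its footprint effect there was -0.04 (anota2seq adjusted p 0.997) and its total RNA effect -0.08. The slope was not worked back for Phf20l1. Why its translation value lay above 0 while both measured effects lay below 0 was not tested.

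The member with the largest day 10 total RNA effect was Stk31. Over the 4 juvenile effects of the authors' deposited table, each divided by its standard deviation over genes, the genes nearest to Stk31 among 14607 were Pip5k1a (distance 0.248), Epdr1 (0.27) and Vcpkmt (0.28). Their day 10 total RNA effects in the authors' deposited table were -0.07, -0.09 and -0.08, beside -0.09 for Stk31. This likeness follows from the choice, since the distance uses that effect. Within a distance of 1 lay 239 genes that are not members, and the median distance over all genes was 2.56.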

How the data were processed

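Total RNA and ribosome footprints of juvenile testis and RNA of adult testis were analysed. STAR, DESeq2 and the build mm10 are named per the submitters' processing notes; no source used here gives the counting program, its strand setting or the annotation. Kits for either ribosomal depletion or poly(A) selection are named per the labels' protocols. For adults, the authors deposited raw counts for each library beside log2 fold changes and adjusted p-values of DESeq2. For juveniles, the authors deposited anota2seq 1.14.0 effects, with adjusted p-values, as the file headers and description sheet say. Their base is not stated and was read as log2, any transformation is not stated, and knockout against control is the order of the description.

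Of 55566 features, filterByExpr kept 22446. edgeR 4.0.16 in R 4.3.3 scaled their counts by TMM and ran its quasi-likelihood test with no covariate, with Benjamini-Hochberg adjustment over all features at 0.05; SE is the log2 fold change over the root of F. DESeq2 1.42.0 was an alternative. The common biological coefficient of variation was 6.77%. Animal numbers in the labels name the replicates as separate animals, and within a genotype the libraries differed beyond sampling noise (chi-square over its degrees of freedom 1.87 to 11.1). Juvenile values were only described: the slope is footprint minus translation effect, over the total RNA effect. RefSeq windows gave motifs and CpG pairs. Figures used matplotlib 3.10.9 in Python 3.11.15.

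Members and lists were chosen with earlier results of these data known. Named were all members, the lowest and highest partner and other Tudor gene in adult testis and in juvenile total RNA and footprints, those past 0.05, and the 3 genes nearest to 1 member; Ybx2, Izumo1, Mybl1, Oaz3, Kif17 and Phf20l1 in translation, and Meiob values, were named after their values were seen. Alternatives were DESeq2, other scaling, filters and thresholds, leaving out each library, means and leaving out Tdrd3.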

Additional observations from a re-analysis of the deposited data

How the results depend on the processing

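No member passed 0.05 under any of the 5 other adult scalings, filters or tools or without any single library (smallest adjusted p 0.306 and 0.167), nor at 0.1; in the juvenile tables none passed 0.15. Single-gene log2 fold changes kept their sign in 50 of 50 values under the former and in 55 of 60 leave-one-out fits. Signs turned for Stk31 (-0.0098 to 0.038), Rnf17 (-0.044 to 0.017) and Tdrd12 (-0.0031 to 0.058) when 1 library was left out; the cause was not tested. The adult median of the members ran from 0.0079 to 0.042 without 1 library. The count of partners called was 0, but 1 with DESeq2, 2 without a filter and 0 to 2 without 1 library. Over all features 53 were called, 198 by DESeq2, 595 without a filter, 1917 without the first heterozygous library and 3 to 15 without another. The day 8 total RNA median moved from 0.001 to -0.013 as a mean and to -0.014 without Tdrd3. Without Tdrd3 the day 8 footprint median was -0.070 and that of day 10 total RNA -0.044; the day 10 footprint mean was -0.040. No paired analysis was possible because the adult genotypes share no animal number and the juvenile tables hold no library values. The authors' classes hold no call for total RNA or footprints alone, so that alternative was run for translation. The lack of library values limits the juvenile results, and 3 animals a genotype limit the adult ones.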

Other observations

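The authors' own adult log2 fold changes of the members ran from -0.08 (Tdrd7) to 0.11 (Tdrd5, DESeq2 adjusted p 0.488) in the authors' deposited table.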
